A study of Rattus norvegicus with 16 samples.

Results

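The genes described here encode structural proteins of the sarcomere, the repeating contractile unit of striated muscle, together with the Z-disc that bounds it and the M-band at its centre. They were chosen by symbol, as 38 genes with the myosin heavy chains and troponins left out, and 31 of them have a row among the 17147 genes of the deposited table. Ttn, Neb, Tcap, Lmod3, Myom3, Myoz3 and Xirp1 were not analysed here. Lmod2 and Myot are listed at 0 in all 16 libraries, so no fold change is given for them, and whether that 0 comes from the muscle or from the processing was not tested. The other 29 passed the filter for low counts along with 11658 genes in all. Messenger RNA was sequenced from the supraspinatus, a rotator cuff muscle, of Sprague Dawley rats in 4 groups of 4 libraries. Controls at 0 days were unoperated. The other groups were sampled on day 10, 30 or 60 of an injury made on both sides, in which the supraspinatus was torn through its full thickness and the suprascapular nerve, which supplies it, was cut out (neurectomy). Tear, nerve loss and surgery itself therefore cannot be told apart, and the labels give neither an age nor which libraries, if any, share a rat, so p-values measure the spread between libraries.

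In the sarcomere, thick filaments of myosin slide along thin filaments of actin. Thin filaments are anchored in the Z-disc by alpha-actinin and carry tropomyosin along their length, and thick filaments are crosslinked at the M-band by myomesins. Many of these proteins exist in forms particular to fast fibres, to slow fibres and the heart, or to developing muscle, and adult muscle without its nerve is known to take up some of the developmental forms.

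Library totals ran from 17.2 to 39.9 M fragments (M, mega), and all 4 libraries at 60 days lay below the others. A count of 3 fragments, taken as the limit of detection, corresponds to 0.0752 to 0.175 CPM (fragments per 1 M fragments) by library total. Levels are in CPM scaled by TMM factors, which averaged 0.763 at 0 days and 1.20, 1.08 and 1.01 at 10, 30 and 60 days. CPM are not divided by gene length, so they compare 1 gene between libraries and not different genes. All 14 muscle fibre markers found in the table, none of them a gene of the set, were detected, and their summed level was 245521 to 269181 CPM on day 0, 73549 to 77157 CPM on day 10, 109976 to 155165 CPM on day 30 and 136194 to 160295 CPM on day 60. These markers include myosin heavy chains and troponins of fast fibres, which the set leaves out, so they are in part contractile genes too. In whole muscle, fewer fibres and less RNA per fibre cannot be told apart. One library at 60 days, replicate 1, was the highest of its group for Acta1, Mybpc1, Tmod1, Xirp2 and Smyd1 by a wide gap, and results that change without it are given with and without it.

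The first question is how the set as a whole differed from unoperated muscle at each time. The share of fragments was added as a measure after seeing the data, so its tests were not planned. The 31 genes took 13.9%, 14.1%, 14.4% and 13.99% of all fragments in the 4 libraries at 0 days, and 5.90%, 4.79%, 4.95% and 5.02% at 10 days. They took 9.71%, 10.8%, 12.6% and 11.5% at 30 days and 14.1%, 11.98%, 12.4% and 12.8% at 60 days. The share was thus lowest in the 4 libraries at 10 days, lay between at 30 days, and overlapped with 0 days only at 60 days. The mean fell by 8.95 percentage points at 10 days and the difference was -2.98 at 30 days (two-sided exact permutation test, p 0.0286 each, the smallest possible, adjusted p 0.0429 over 6 comparisons). At 60 days the difference of -1.31 did not pass (exact permutation p 0.0857, adjusted p 0.0857). Acta1 alone gave 4.78% ± 0.157 (SD, n = 4) of fragments at 0 days and 0.937% ± 0.154 at 10 days, and without it the differences at the 3 times were -5.11, -1.15 and -0.400 percentage points.

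**Figure D1:**
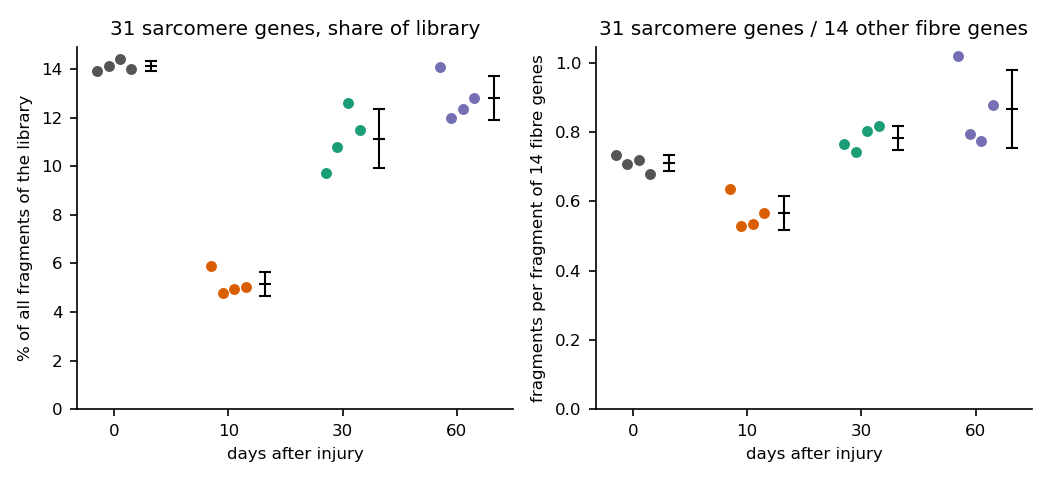
Left, share of all fragments of each library taken by the 31 sarcomere genes, in percent. Right, their fragments per fragment of 14 other muscle fibre genes, which include myosin heavy chains and troponins. Points are libraries, and the bars beside them give the mean and SD of 4. The share was 14.1% at 0 days and 5.16% at 10 days on average, and the ratio on the right was lowest at 10 days and highest at 60 days.

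Set against the 14 other fibre genes in the same library, the set gave 0.710 ± 0.0225 fragments (SD, n = 4) per fragment of those genes at 0 days. The ratio was 0.567 ± 0.0492 on day 10, 0.782 ± 0.0347 on day 30 and 0.867 ± 0.112 on day 60. The 4 values at 10 days (0.529 to 0.636) lay below, and those at 30 days (0.741 to 0.817) and 60 days (0.775 to 1.02) above, the range at 0 days (0.680 to 0.733). This ratio needs no scaling between libraries. It is a description of 2 chosen lists, both with contractile genes, and was not tested.

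At 10 days 27 of the 29 genes tested were called changed (edgeR adjusted p under 0.05), against 62.7% of all genes. Of these 23 fell, against 29.4% of all genes, and 4 rose (Myl4, Actc1, Mybph and Tmod1), against 33.3%. At 30 days 22 were changed, 19 lower and 3 higher, against 64.6% of all genes changed, 30.9% lower and 33.7% higher. At 60 days 17 were changed, 14 lower and 3 higher, against 59.0%, 29.1% and 29.9%. The share called at 60 days was thus near that of all genes. The median log2 fold change of the 29 genes was -1.54, -0.67 and -0.25 at the 3 times, beside 0.06, 0.05 and 0.04 for all genes tested. For 26, 21 and 16 of the 29 genes the injured and unoperated libraries had no overlap in CPM, against 59.0%, 60.2% and 50.0% of all genes.

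These directions depend on the scaling. With library totals and no further factor, the median of all genes moved to 0.72, 0.54 and 0.45, and 6 of the set were then called higher and 20 lower at 10 days (70.0% and 10.1% of all genes), 11 and 12 at 30 days (63.1% and 11.9%), and 10 and 8 at 60 days (57.8% and 12.1%). With upper-quartile factors the medians of all genes were 0.12, 0.17 and 0.18 and the 60-day split was 6 higher and 11 lower (39.1% and 22.4% of all genes). A fold change is thus read against the bulk of all genes, and where its sign differs with library totals that value stands beside it. Falls against 0 days that were called under both scalings were smaller with library totals.

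Across the 3 times 13 genes were lower throughout, a pattern held by 15.6% of all genes, and Myl4 and Mybph were higher throughout, as were 16.6% of all genes. Another 5 (Myom1, Myoz2, Ldb3, Tpm3 and Xirp2) were lower at 10 and 30 days and not called at 60 days, as were 5.1% of all genes. The light chains Myl1, Myl2, Myl3 and Mylpf were lower at 10 days alone, as were 5.52% of all genes. Actn2 was lower at 10 days and higher at 60 days, Unc45b was lower at 30 and 60 days alone, and Pdlim3 was not called at any time.

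**Figure D2:**
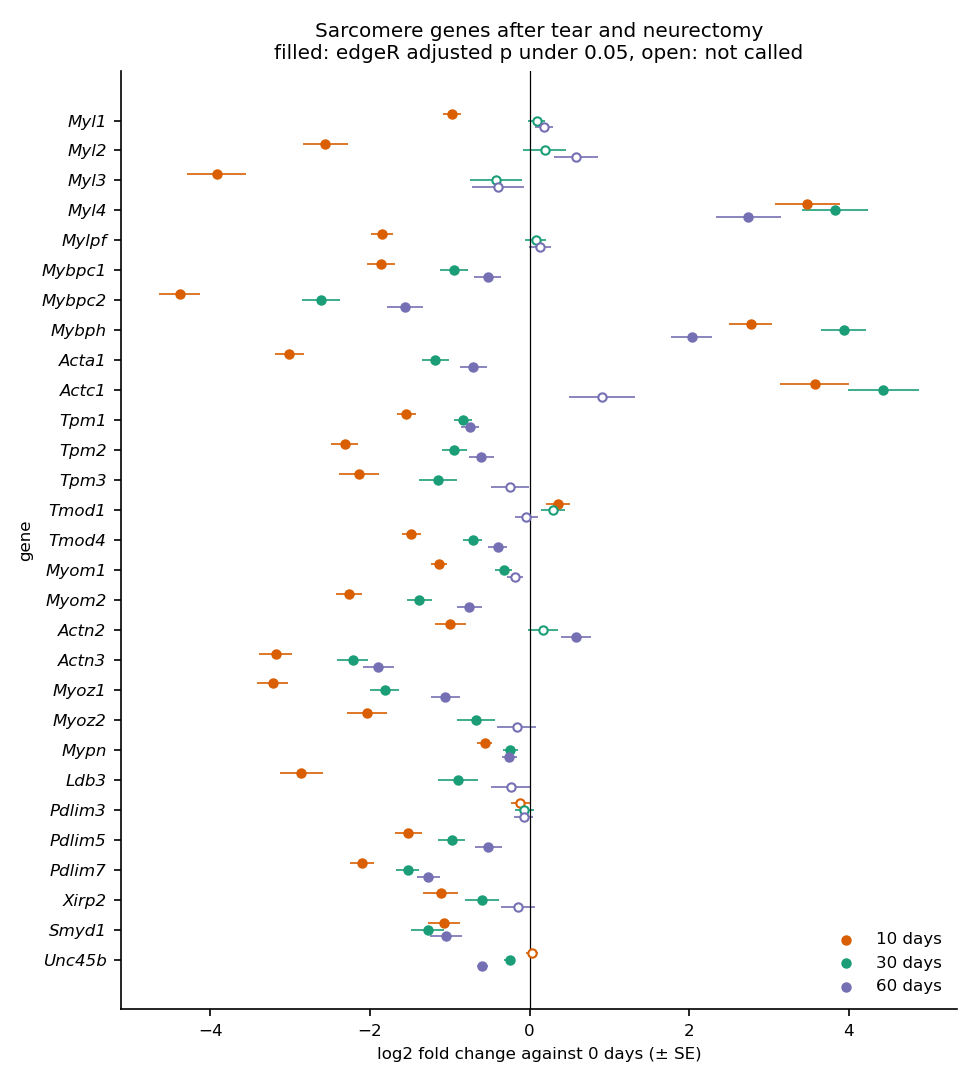
Log2 fold change against 0 days of the 29 genes tested, with SE, at 10, 30 and 60 days, in groups by role from the light chains at the top to the assembly factors at the bottom. Filled points have an edgeR adjusted p under 0.05. At 10 days 23 genes lie left of 0 as called, and Myl4, Mybph and Actc1 lie far to the right.

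The promoters of 5 genes lower at 10 days are shown as examples, and each holds a motif that is rare among promoters. Myl1 and Xirp2, also lower at 10 days, hold such a motif too and are not shown. Most genes of the set that were tested were lower at 10 days, against 29.4% of all genes, so within the set the fall does not set these 5 apart. The sequences are RefSeq's on the GRCr8 assembly, while the counts were made on rn5, so genes were matched by symbol. Of the 38 genes 31 matched, with 37 promoters in all, because some have several start sites. The 250 bases before the start were searched on both strands. A CArG box, the site bound by serum response factor, was found for Acta1, Ldb3 and Myl3, and in 1.5% of all 33469 promoters. A MEF2 site was found for 7 genes (Myl1, Myoz1, Myoz2, Myom3, Ttn, Xirp1 and Xirp2), in 8 promoters, and in 2.96% of all promoters. The E-box CANNTG was in 28 of the 37 promoters and in 65.5% of all. The TATA box TATAAA was in 6 and in 12.9% of all, and the M-CAT motif CATTCC in 6 and in 12.1%. No match overlaps another in the 5 sequences shown. A match is a description of letters only. Capitals mark the CArG box of the first 3 sequences (and, nearer the start, the TATA box of Acta1) and the MEF2 site of the last 2. The positions are chr19:68784195-68784444, minus strand for Acta1, chr16:9924680-9924929, minus strand for Ldb3, chr8:119616844-119617093, plus strand for Myl3, chr15:3693363-3693612, plus strand for Myoz1 and chr2:213852779-213853028, minus strand for Myoz2.
Acta1: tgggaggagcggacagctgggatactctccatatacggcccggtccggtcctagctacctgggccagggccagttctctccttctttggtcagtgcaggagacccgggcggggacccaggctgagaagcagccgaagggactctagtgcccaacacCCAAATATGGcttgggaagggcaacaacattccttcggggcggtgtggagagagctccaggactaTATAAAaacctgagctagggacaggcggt
Ldb3: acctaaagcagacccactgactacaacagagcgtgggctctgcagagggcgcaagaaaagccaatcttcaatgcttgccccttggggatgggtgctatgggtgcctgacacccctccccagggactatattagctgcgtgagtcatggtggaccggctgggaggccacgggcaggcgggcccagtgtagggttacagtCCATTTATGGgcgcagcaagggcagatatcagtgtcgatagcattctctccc
Myl3: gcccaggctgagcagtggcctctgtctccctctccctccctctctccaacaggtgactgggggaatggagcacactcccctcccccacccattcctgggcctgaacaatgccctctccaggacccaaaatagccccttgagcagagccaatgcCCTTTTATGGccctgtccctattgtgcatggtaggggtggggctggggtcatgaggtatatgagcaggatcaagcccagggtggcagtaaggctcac
Myoz1: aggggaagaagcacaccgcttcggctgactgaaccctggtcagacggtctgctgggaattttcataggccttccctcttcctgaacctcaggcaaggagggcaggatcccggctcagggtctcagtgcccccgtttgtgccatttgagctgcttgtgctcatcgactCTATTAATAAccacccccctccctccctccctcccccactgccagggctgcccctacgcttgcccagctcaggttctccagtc
Myoz2: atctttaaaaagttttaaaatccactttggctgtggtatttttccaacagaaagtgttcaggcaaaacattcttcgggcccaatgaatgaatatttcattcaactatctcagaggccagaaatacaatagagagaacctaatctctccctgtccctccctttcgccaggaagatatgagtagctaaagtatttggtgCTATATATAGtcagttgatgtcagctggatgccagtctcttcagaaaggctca
Of these 5 genes, all were lower at 10 and 30 days except Myl3, which was lower at 10 days alone.

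The actins form the core of the thin filament. Acta1 encodes the skeletal actin of adult muscle. Acta1 stood at 59446, 64133, 65578 and 61237 CPM in the unoperated libraries, at 9701, 7539, 6702 and 7189.97 on day 10, at 20743, 26458, 34209 and 29083 on day 30 and at 50033, 33608, 35070.2 and 34751 on day 60. All libraries after injury lay below those of 0 days, with the 4 at 10 days lowest and 1 of the 4 at 60 days, replicate 1, well above the others. Acta1 fell 8.04-fold at 10 days (log2 -3.01 ± 0.18, adjusted p 1.21e-09, edgeR) and was still lower at 30 days (-1.18 ± 0.17, adjusted p 1.79e-05) and 60 days (-0.71 ± 0.17, adjusted p 0.00208). With library totals the 60-day value was -0.30 and not called.

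Actc1 encodes cardiac actin, the main actin of the heart and of developing skeletal muscle. Actc1 stood at 12.1, 15.4, 13.8 and 13.4 CPM in the unoperated libraries, at 205, 71.9, 149.8 and 226 on day 10, at 489, 120.1, 185 and 390.04 on day 30 and at 17.3, 23.6, 29.0 and 32.9 on day 60. Every library at 10 and 30 days was above every library at 0 and 60 days, and the spread was wide, with an SD of 172 CPM at 30 days. Actc1 rose 11.9-fold at 10 days (log2 3.58 ± 0.43, adjusted p 3.13e-06, edgeR) and 21.6-fold at 30 days (4.43 ± 0.45, adjusted p 5.81e-07). At 60 days its log2 fold change was 0.91 ± 0.41, adjusted p 0.0693, which missed the threshold although the 2 groups did not overlap. It was called with library totals (1.32), with upper-quartile factors (1.05) and in a fit of the 2 groups alone (0.93). It was also called without 10-day replicate 2 (0.90, adjusted p 0.0420) or without 30-day replicate 2 (0.90, adjusted p 0.0328). The proteins of Acta1 and Actc1 are near-identical. Fragments from like stretches of the 2 genes may be split between them, so their levels are uncertain to that extent, which was not tested.

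The light chains sit on the neck of the myosin head. Mylpf is the regulatory light chain of fast fibres and Myl2 that of slow fibres and heart ventricle, and Myl1 and Myl3 are the essential light chains of fast and of slow or ventricular myosin. Myl1 stood at 14118, 14077, 16678 and 14373 CPM in the unoperated libraries, at 8114, 7164, 7161 and 7818 on day 10, at 14333, 14664, 18726 and 15294 on day 30 and at 16668, 16070.00, 17859 and 16488 on day 60. Myl3 stood at 1637, 1848, 1448 and 1669 CPM in the unoperated libraries, at 196, 88.1, 45.1 and 107 on day 10, at 958, 1057, 1524 and 1393 on day 30 and at 1516, 1455, 739 and 1322 on day 60. For both genes the 4 libraries at 10 days lay below all others, and those at 30 and 60 days overlapped with 0 days. Myl3 fell 15.1-fold (log2 -3.92 ± 0.37, adjusted p 1.88e-07, edgeR) and Myl1 fell 1.96-fold (-0.97 ± 0.11, adjusted p 1.07e-06).

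Myl2 fell at 10 days as well (log2 -2.56 ± 0.29, adjusted p 1.38e-06, edgeR), from 353 ± 47.7 CPM (SD, n = 4) to 59.9 ± 21.7, and Mylpf fell from 14415 ± 1216 to 3998 ± 495 CPM (-1.85 ± 0.14, adjusted p 1.08e-08). At 30 and 60 days none of these 4 was called: the log2 values were 0.09 and 0.18 for Myl1, 0.08 and 0.13 for Mylpf, 0.19 and 0.58 for Myl2, and -0.42 and -0.39 for Myl3. With library totals Myl1 (0.58 and 0.59), Mylpf (0.56 and 0.54) and Myl2 (0.68 and 0.99) were called higher at both times, and Myl3 changed sign to 0.064 and 0.017, not called. Upper-quartile factors called Myl1 (0.32) and Myl2 (0.72) higher at 60 days, and so did the fit without 60-day replicate 3 for Myl2 (0.78, adjusted p 0.0140). A fit of the 2 groups alone called Myl3 lower at 30 days (-0.43).

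Myl4 is the essential light chain of embryonic muscle and the heart's atria. Myl4 stood at 3.43, 3.85, 3.61 and 4.60 CPM in the unoperated libraries, at 37.6, 20.0, 58.2 and 57.7 on day 10, at 77.1, 42.2, 51.4 and 50.2 on day 30 and at 17.6, 46.9, 13.3 and 26.1 on day 60. All 12 libraries after injury were above the 4 at 0 days, and those at 60 days ranged widely. Myl4 rose 11.2-fold at 10 days (log2 3.48 ± 0.41, adjusted p 2.44e-06, edgeR), 14.2-fold at 30 days (3.83 ± 0.41, adjusted p 1.24e-06) and 6.68-fold at 60 days (2.74 ± 0.41, adjusted p 4.27e-05).

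Myosin-binding proteins attach along the thick filament. Mybpc2 is the fast-fibre form of myosin-binding protein C and Mybpc1 the form named slow, which is not limited to slow fibres. Mybpc2 stood at 7381, 8366, 7574 and 7416 CPM in the unoperated libraries, at 355, 269, 513 and 336 on day 10, at 657, 1546, 1602 and 1212 on day 30 and at 2852, 2514, 2671 and 2415 on day 60. Mybpc1 stood at 8507, 9819.6, 9085 and 9693 CPM in the unoperated libraries, at 3334, 2072, 2309.6 and 2474 on day 10, at 3947, 5128, 5302 and 4876 on day 30 and at 8923, 5499, 5669.9 and 5715 on day 60. No 2 of the 4 groups overlapped for Mybpc2, which was lowest at 10 days, then 30 days, then 60 days, all below 0 days. Its fall of 20.9-fold at 10 days was the largest of the set (log2 -4.38 ± 0.26, adjusted p 1.14e-09, edgeR), and it stayed lower at 30 days (-2.61 ± 0.24, adjusted p 1.32e-07) and 60 days (-1.56 ± 0.23, adjusted p 2.93e-05).

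Mybpc1 also fell, with log2 -1.86 at 10 days (edgeR adjusted p 1.05e-07) and -0.95 at 30 days (adjusted p 0.000139). At 60 days it was lower (log2 -0.52, adjusted p 0.0139), a call lost with library totals (-0.12), with upper-quartile factors (-0.39) and without 60-day replicate 4 (-0.45, adjusted p 0.0517). Its highest value at 60 days, in replicate 1, overlapped with 0 days.

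Mybph encodes myosin-binding protein H, a smaller relative. Mybph stood at 163, 84.5, 75.5 and 70.6 CPM in the unoperated libraries, at 689, 848, 494 and 648 on day 10, at 1397, 1265, 1276 and 2070.2 on day 30 and at 424, 409, 314 and 460.1 on day 60. One library at 0 days, replicate 1, was well above the other 3, and every library after injury was above it. Mybph rose 6.82-fold at 10 days (log2 2.77 ± 0.27, adjusted p 2.62e-07, edgeR), 15.3-fold at 30 days (3.93 ± 0.28, adjusted p 1.57e-08) and 4.09-fold at 60 days (2.03 ± 0.26, adjusted p 9.37e-06).

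The summed level of satellite cell and myoblast markers was higher in every library at 10 and 30 days than at 0 days. That of cardiac markers was not. A sum can be carried by part of its list. The 6 satellite cell and myoblast markers had a summed level of 113 to 129.6 CPM on day 0, 659 to 759 CPM on day 10, 518 to 805 CPM on day 30 and 156 to 278 CPM on day 60, and 3 were called higher and 1 lower at 10 days, against 33.3% and 29.4% of all genes. The 7 cardiac muscle markers, all found and none at 0 in every library, summed to 37.4 to 150.1 CPM on day 0, 49.1 to 95.5 CPM on day 10, 79.5 to 181 CPM on day 30 and 81.7 to 211 CPM on day 60, with ranges that overlap. The part of either list in the rises of Myl4, Actc1 and Mybph was not tested.

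**Figure D3:**
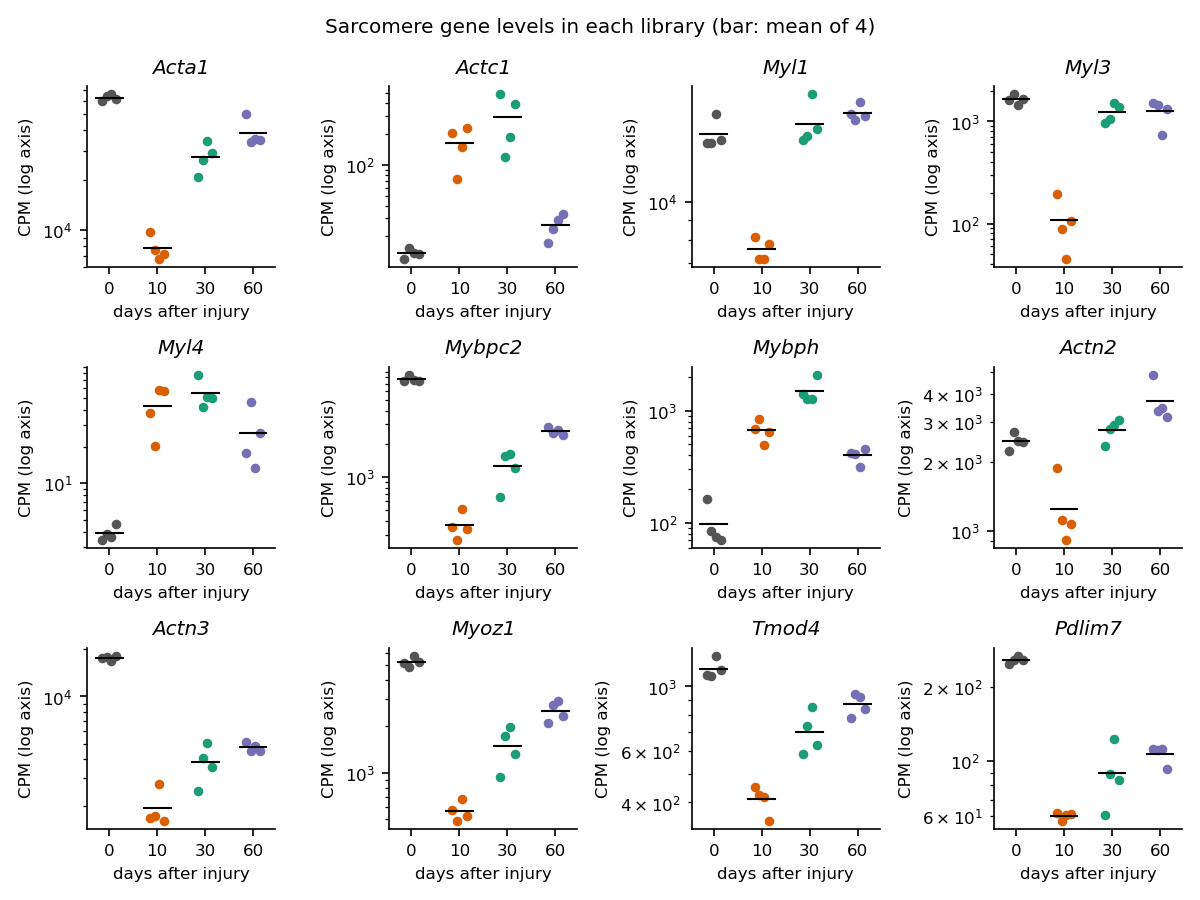
Level of 12 sarcomere genes in each library, in TMM-scaled CPM on log axes, at 0, 10, 30 and 60 days. Points are libraries and black bars are means of 4. Acta1, Myl1, Myl3, Mybpc2, Actn2, Actn3, Myoz1, Tmod4 and Pdlim7 were lowest at 10 days on average, and Actc1, Myl4 and Mybph were above 0 days in every library.

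Tropomyosins lie along the actin filament and gate the access of myosin. Tpm1 (the fast alpha form in skeletal muscle), Tpm2 (beta) and Tpm3 (slow) were all lower at 10 and 30 days under each scaling. Tpm1 had a mean of 19066 ± 1147 CPM in unoperated muscle (SD, n = 4), 6547 ± 81.5 on day 10, 10729 ± 1523 on day 30 and 11367 ± 1048 on day 60, and its log2 fold changes were -1.54 ± 0.11, -0.83 ± 0.11 and -0.75 ± 0.11 (edgeR adjusted p 8.13e-09, 8.66e-06 and 3.46e-05). Its 4 libraries at 10 days spanned only 6471 to 6643 CPM. Tpm2 was at log2 -2.32 on day 10 and at -0.94 and -0.61 later (edgeR adjusted p 5.82e-09, 7.81e-05 and 0.00371), the last lost with library totals (-0.20). Tpm3 was at -2.14, -1.15 and -0.25 (2.09e-06, 0.000678 and 0.391), with the 60-day value, not called, at 0.16 with library totals. These 3 genes are also made outside muscle fibres, and counts per gene do not separate their isoforms. The 8 smooth muscle markers, which include Des of skeletal fibres, summed to 6399 to 6958 CPM on day 0, 4364 to 5289.5 CPM on day 10, 3833 to 4175 CPM on day 30 and 3588 to 4657 CPM on day 60, and 8 were called lower at 10 days, 4 at 30 days and 2 at 60 days (29.4%, 30.9% and 29.1% of all genes). With library totals 3 were lower and 2 higher at 10 days (10.1% and 70.0% of all genes). Their part in the result was not tested.

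Tropomodulins cap the pointed end of the thin filament. Tmod4 is the form of skeletal muscle, and Tmod1 is also found in the heart and in red blood cells. Tmod4 stood at 1093, 1087, 1269.9 and 1137 CPM in the unoperated libraries, at 454, 424, 417 and 346 on day 10, at 586, 732, 852 and 629 on day 30 and at 779, 943, 918 and 838 on day 60. Tmod1 stood at 394, 326, 339 and 368 CPM in the unoperated libraries, at 471, 533, 445 and 375 on day 10, at 445, 408, 386 and 509 on day 30 and at 479, 303, 304 and 303 on day 60. Tmod4 libraries after injury lay below all of those at 0 days, whereas Tmod1 overlapped between 0 days and every other time. Tmod4 fell at 10 days (log2 -1.48 ± 0.12, adjusted p 1.81e-08, edgeR), 30 days (-0.71 ± 0.12, adjusted p 5.72e-05, and -0.23, not called, with library totals) and 60 days (-0.40 ± 0.12, adjusted p 0.00747), the last at 0.01 with library totals and -0.26, not called, with upper-quartile factors.

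Tmod1 was higher at 10 days by log2 0.35 ± 0.15, adjusted p 0.0446 (edgeR), a call lost with RLE factors (0.32), with DESeq2 (0.32), with the title letter as a covariate (0.36) and in 8 of 16 fits with 1 library removed (log2 0.27 to 0.44, adjusted p 0.00719 to 0.142). At 30 days it was called without 60-day replicate 1 (0.29, adjusted p 0.0214) and not with it (0.29 ± 0.15, adjusted p 0.0893), and it was called with upper-quartile factors (0.42) and library totals (0.79). The 5 erythroid markers found in the table summed to 694 to 2312 CPM on day 0, 238 to 312 CPM on day 10, 326 to 822 CPM on day 30 and 427 to 1037 CPM on day 60, and all 5 were called lower at 10 days, against 29.4% of all genes. Their part in the result was not tested.

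The M-band genes Myom1 and Myom2 encode myomesins that crosslink thick filaments, Myom2 chiefly in fast fibres. Myom2 had a mean of 2561 ± 181 CPM in unoperated muscle (SD, n = 4), 533 ± 80.8 on day 10, 984 ± 235 on day 30 and 1519.5 ± 215 on day 60. It fell at all 3 times (log2 -2.26 ± 0.16, adjusted p 6.14e-09, -1.38 ± 0.16, adjusted p 1.48e-06 and -0.75 ± 0.16, adjusted p 0.000648, edgeR). Myom1 was lower at 10 days (-1.13 ± 0.10, adjusted p 8.14e-08) and 30 days (-0.32 ± 0.10, adjusted p 0.0107), where upper-quartile factors lost the call (-0.20) and library totals turned it to 0.17. At 60 days Myom1 was at -0.18 ± 0.10, adjusted p 0.142, and library totals gave 0.23, called higher.

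Alpha-actinin crosslinks actin at the Z-disc, as Actn2 in all fibres and Actn3 in fast fibres. Actn3 stood at 17519.9, 17898, 16748 and 18079 CPM in the unoperated libraries, at 1662, 1733, 2751 and 1602 on day 10, at 2499.6, 4069.7, 5018 and 3553 on day 30 and at 5146, 4469.9, 4830.2 and 4466 on day 60. Actn2 stood at 2233, 2733, 2493 and 2465 CPM in the unoperated libraries, at 1895, 1115, 912 and 1070.5 on day 10, at 2354, 2805, 2912 and 3062 on day 30 and at 4835, 3349.9, 3479 and 3166 on day 60. Actn3 stayed below the range of 0 days in all 12 libraries, whereas Actn2 was below it at 10 days, overlapped at 30 days and was above it in all 4 libraries at 60 days. Actn3 fell 9.07-fold at 10 days (log2 -3.18 ± 0.20, adjusted p 2.05e-09, edgeR) and was lower at 30 days (-2.21 ± 0.20, adjusted p 8.29e-08). At 60 days it had the largest fall of the set (-1.89 ± 0.19, adjusted p 6.87e-07).

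Actn2 fell at 10 days (log2 -0.99 ± 0.19, adjusted p 0.000266, edgeR), which with library totals was -0.33 and not called. It was not called at 30 days (0.17, and 0.66 and called with library totals). At 60 days it was higher (0.58 ± 0.19, adjusted p 0.0154), a call lost without 60-day replicate 1 (0.42, adjusted p 0.0580).

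Calsarcins bind alpha-actinin and the phosphatase calcineurin at the Z-disc, Myoz1 in fast fibres and Myoz2 in slow fibres and the heart. Myoz1 stood at 5175, 4875, 5711 and 5264 CPM in the unoperated libraries, at 574, 487, 672 and 525 on day 10, at 945, 1728, 1976 and 1326 on day 30 and at 2109, 2769.9, 2933 and 2321 on day 60. Myoz2 stood at 379, 431, 263 and 360.2 CPM in the unoperated libraries, at 129, 73.5, 62.3 and 83.7 on day 10, at 226, 180.3, 214 and 281 on day 30 and at 455, 301, 210.1 and 314 on day 60. Myoz1 libraries after injury were all below those of 0 days, and Myoz2 libraries were below them at 10 days alone. Myoz1 fell 9.31-fold at 10 days (log2 -3.22 ± 0.20, adjusted p 1.21e-09, edgeR), with -1.82 ± 0.19, adjusted p 3.98e-07 at 30 days and -1.05 ± 0.18, adjusted p 0.000125 at 60 days.

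Myoz2 fell at 10 days (log2 -2.04 ± 0.25, adjusted p 3.63e-06, edgeR) and at 30 days (-0.67 ± 0.24, adjusted p 0.0236), where the call was lost with library totals (-0.17), with upper-quartile factors (-0.55), and without 0-day replicate 1 (-0.64, adjusted p 0.0522), 0-day replicate 2 (-0.56, adjusted p 0.0730) or 30-day replicate 2 (-0.58, adjusted p 0.0642). At 60 days it was at -0.16 ± 0.24, adjusted p 0.576, and at 0.24 with library totals.

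The PDZ-LIM proteins of the Z-disc are Pdlim3, Pdlim5, Pdlim7 and Ldb3. Pdlim7 stood at 249, 258, 267 and 257 CPM in the unoperated libraries, at 61.8, 57.4, 60.4 and 61.0 on day 10, at 60.9, 89.3, 124 and 84.3 on day 30 and at 112, 111, 112 and 93.4 on day 60. Pdlim7, also known as enigma, varied little within the groups at 0 and 10 days, and all 12 libraries after injury were below 0 days. It fell 4.28-fold at 10 days (log2 -2.10 ± 0.15, adjusted p 5.69e-09, edgeR), and was lower at 30 days (-1.53 ± 0.14, adjusted p 1.98e-07) and 60 days (-1.27 ± 0.14, adjusted p 2.18e-06).

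Ldb3, whose product (ZASP or cypher) binds alpha-actinin, had a mean of 4267 ± 203 CPM in unoperated muscle (SD, n = 4), 588 ± 291 on day 10, 2294 ± 600.5 on day 30 and 3629 ± 503 on day 60. It fell at 10 days (log2 -2.86 ± 0.27, adjusted p 1.74e-07, edgeR) and 30 days (-0.90 ± 0.25, adjusted p 0.00583, and -0.42, not called, with library totals). At 60 days it was not called (-0.23 ± 0.25, adjusted p 0.439, and 0.17 with library totals). Pdlim5 was lower at all 3 times (log2 -1.52, -0.97 and -0.52, edgeR adjusted p 1.08e-06, 0.000106 and 0.0144). The last call was lost with library totals (-0.12) and without 60-day replicate 4 (-0.35, adjusted p 0.0535). Pdlim3, the actinin-associated LIM protein, had a mean of 1403 ± 56.7 CPM in unoperated muscle (SD, n = 4), 1296 ± 149 on day 10, 1340.1 ± 194 on day 30 and 1336 ± 185 on day 60. Its log2 values of -0.11 ± 0.12, -0.07 ± 0.12 and -0.07 ± 0.12 were not called, and with library totals it was called higher at all 3 times (0.54, 0.43 and 0.33).

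Among the other Z-disc genes, Mypn encodes myopalladin, which links nebulin and alpha-actinin, and Xirp2 an actin-binding protein with Xin repeats. Mypn was lower by small amounts at all 3 times (log2 -0.56 ± 0.10, adjusted p 7.93e-05, -0.24 ± 0.10, adjusted p 0.0354 and -0.25 ± 0.10, adjusted p 0.0325, edgeR), but all 3 signs turned with library totals (0.096, 0.25 and 0.15, the second called higher), and upper-quartile factors lost the later 2 calls (-0.12 and -0.11). The 60-day call was also lost in a fit of the 2 groups alone (-0.23). Its calls at 30 and 60 days were lost in 4 and 7 of 16 fits with 1 library removed (log2 -0.27 to -0.17 with adjusted p 0.0185 to 0.135, and -0.33 to -0.18 with 0.00579 to 0.148). Xirp2 was lower at 10 days (-1.11 ± 0.22, adjusted p 0.000287) and 30 days (-0.60 ± 0.21, adjusted p 0.0220), a call lost with library totals (-0.10) and upper-quartile factors (-0.48). Its 30-day call was lost without 30-day replicate 1 (-0.58, adjusted p 0.0503) or 3 (-0.53, adjusted p 0.0619). At 60 days Xirp2 was at 5146, 2203, 2466 and 2629.7 CPM, with 1 library far above the others. Its log2 fold change then was -0.14 ± 0.21, adjusted p 0.580, with 0.25 under library totals, and -0.50, adjusted p 0.00445 without that library, replicate 1.

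The assembly factors Smyd1, a muscle methyltransferase that binds myosin, and Unc45b, the chaperone that folds the myosin head, were called at different times. Smyd1 was lower at all 3 times (log2 -1.07 ± 0.20, adjusted p 0.000264, -1.28 ± 0.20, adjusted p 5.83e-05 and -1.04 ± 0.20, adjusted p 0.000442, edgeR), the first of these -0.41 and not called with library totals. Unc45b was at 0.03 ± 0.07, adjusted p 0.715 at 10 days, where library totals gave 0.69, called higher. It was lower at 30 days (-0.25 ± 0.07, adjusted p 0.00564, but -0.13 and not called with upper-quartile factors, and 0.25, called higher, with library totals) and at 60 days (-0.59 ± 0.07, adjusted p 3.54e-06). Unc45b had a mean of 339 ± 14.2 CPM in unoperated muscle (SD, n = 4), 347 ± 23.6 on day 10, 286 ± 15.8 on day 30 and 225 ± 13.4 on day 60, and the groups at 0 and 60 days did not overlap.

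Ratios of 2 related genes in the same library do not depend on how libraries are scaled, and 12 pairs were set, of which 10 could be computed and 9 are described. Each was compared between groups by a two-sided exact permutation test, with 40 tests adjusted together. The smallest possible p of 0.0286 has an adjusted value of 0.0457 here, and that value applies to every ratio said to have passed. At 10 days 7 of the 9 passed, at 30 days 6 and at 60 days 4. A ratio shows that 2 genes changed by unequal amounts and not which of them changed.

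The alpha-actinin ratio stayed above its level at 0 days at all 3 times. The log2 of Actn2 over Actn3 was -2.97, -2.71, -2.75 and -2.87 in the libraries at 0 days, 0.19, -0.64, -1.59 and -0.58 at 10 days, -0.09, -0.54, -0.79 and -0.21 at 30 days and -0.09, -0.42, -0.47 and -0.50 at 60 days. All 12 libraries after injury were above 0 days, and the means were higher by 2.17, 2.42 and 2.46 on the log2 scale. The difference between 60 and 10 days was 0.29 (exact permutation p 0.543, adjusted p 0.557).

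At 10 and 30 days the 2 ratios with a developmental form in the numerator had the largest differences of the 9. Myl4 over Myl1 was higher by log2 4.33, 3.71 and 2.40 at 10, 30 and 60 days, and Mybph over Mybpc2 by 7.25, 6.68 and 3.66. All 6 of these passed. From 10 to 60 days Mybph over Mybpc2 changed by log2 -3.59, which passed, while Myl4 over Myl1 had -1.93 (exact permutation p 0.0571, adjusted p 0.0762).

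Ratios of a slow or general form to a fast form went both ways. Mybpc1 over Mybpc2 was higher at all 3 times, by log2 2.54, 1.74 and 1.00, all passing. Myoz2 over Myoz1 passed at 10 and 30 days (1.15 and 1.20) and had 0.87 at 60 days (exact permutation p 0.0857, adjusted p 0.104). Tmod1 over Tmod4 passed at 10 and 30 days (1.83 and 1.01) and had 0.34 at 60 days (exact permutation p 0.200, adjusted p 0.229). Myl3 over Myl1 went the other way, by -3.14 at 10 days, which passed, and -0.53 and -0.62 later (exact permutation p 0.0571 and 0.0857, adjusted p 0.0762 and 0.104). Myl2 over Mylpf had -0.76, 0.11 and 0.39, and Tpm3 over Tpm1 -0.63, -0.31 and 0.48, and none of these passed.

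**Figure D4:**
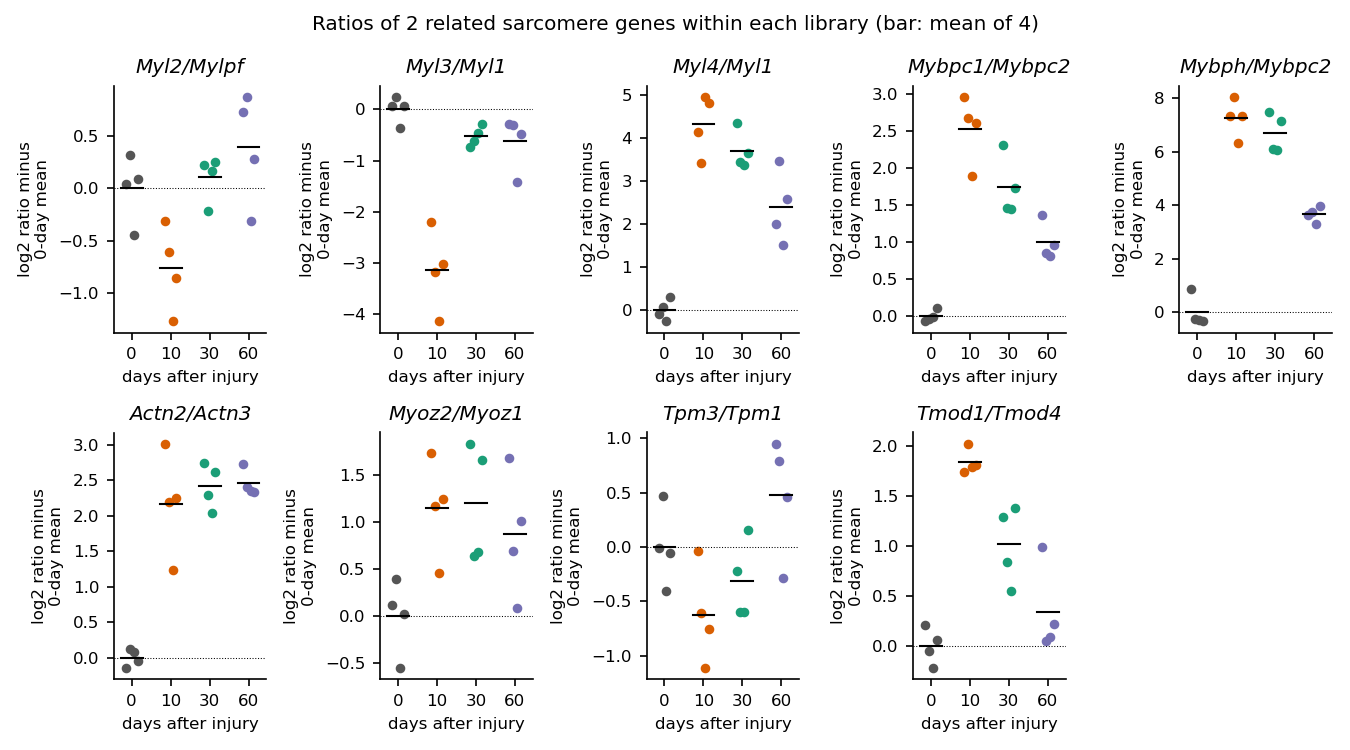
Log2 ratio of 2 related genes in each library, less the mean of the ratio at 0 days, for 9 pairs at 0, 10, 30 and 60 days. Points are libraries and black bars are means of 4. Actn2/Actn3 sits near 2.17 to 2.46 above 0 days at all 3 times, and Mybph/Mybpc2 comes down between 30 and 60 days.

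By fibre type, the 8 fast forms tested (Mylpf, Myl1, Actn3, Mybpc2, Myom2, Myoz1, Tmod4 and Tpm1) were all lower at 10 days, and 6 of them at 30 and at 60 days, against 29.4%, 30.9% and 29.1% of all genes, with medians of log2 -2.06, -1.11 and -0.75. With library totals the 10-day split was the same (10.1% of all genes lower), and at 30 and at 60 days 2 (Myl1 and Mylpf) were higher and 5 lower, against 63.1% and 57.8% of all genes higher and 11.9% and 12.1% lower. The other list has 7 genes. It holds the slow or cardiac forms Myl2, Myl3, Myoz2 and Tpm3 with Mybpc1, Actn2 and Tmod1, which are not limited to slow fibres. Of these 6 were lower and Tmod1 higher at 10 days, 3 were lower at 30 days, and at 60 days Mybpc1 was lower and Actn2 higher. Their medians were -2.04, -0.42 and -0.16, and with library totals the last 2 turned to 0.06 and 0.24. That scaling called 5 lower and Tmod1 higher at 10 days, 3 higher and 2 lower at 30 days, and 3 higher (Myl2, Actn2 and Tmod1) and none lower at 60 days. Tmod4 is counted as fast although it was described above only as the form of skeletal muscle. The 2 lists were not compared by a test.

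Between the operated groups, the question is how the levels moved with time. From 10 to 30 days 22 of the 29 genes rose and Unc45b fell, against 23.0% of all genes higher, 24.3% lower and 47.3% called in all, and 20 did not overlap between the groups, against 43.8%. From 30 to 60 days 8 were called, against 22.6% of all genes: Mybpc2, Myom2, Myoz1 and Tpm3 rose (10.3% of all genes) and Actc1, Myl4, Mybph and Unc45b fell (12.4%). Groups did not overlap for 9, against 20.1%. DESeq2 called 13 there, 9 of them higher. From 10 to 60 days 22 rose and 4 fell (Actc1, Mybph, Tmod1 and Unc45b), against 29.1%, 31.9% and 61.1% called in all, and 25 did not overlap, against 51.2%. The median of the set was log2 1.15, beside -0.01 for all genes.

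The largest rises from 10 to 60 days were those of Myl3 (log2 3.53 ± 0.36, adjusted p 7.73e-07, edgeR), Myl2 (3.14 ± 0.29, adjusted p 3.45e-07), Mybpc2 (2.83 ± 0.24, adjusted p 9.37e-08) and Ldb3 (2.63 ± 0.27, adjusted p 6.67e-07). Actc1 fell most (-2.67 ± 0.41, adjusted p 4.63e-05). Tmod1 fell as well (-0.39 ± 0.15, adjusted p 0.0289), a call lost with upper-quartile factors (-0.31) and in a fit of the 2 groups alone (-0.39). With 1 library left out in turn, 5 of the 16 fits did not call it (log2 -0.59 to -0.31, adjusted p 0.000297 to 0.0984). Mybph fell too (-0.74 ± 0.25, adjusted p 0.0181), a call lost without 10-day replicate 2 (-0.60, adjusted p 0.0628) or 60-day replicate 3 (-0.64, adjusted p 0.0572). Myl4 was not called (-0.74 ± 0.35, adjusted p 0.0813), and was with library totals (-0.99), without 10-day replicate 2 (-0.98, adjusted p 0.0186) or 60-day replicate 2 (-1.19, adjusted p 0.00698). These comparisons with 10 days share the 10-day libraries with the comparison of 10 against 0 days.

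A list of 50 further genes was also read. It holds genes of the sarcomere, Z-disc and M-band, but also chaperones and related forms not limited to skeletal fibres. Of these 50 genes 42 are in the table and 41 were tested, and their median log2 fold change was -0.38, -0.08 and 0.01 at the 3 times. At 10 days 8 rose and 23 fell, at 30 days 11 rose and 17 fell, and at 60 days 13 rose and 14 fell. Of all genes 33.3%, 33.7% and 29.9% rose and 29.4%, 30.9% and 29.1% fell. With library totals the splits were 18 and 10, 21 and 10, and 23 and 7 (70.0%, 63.1% and 57.8% of all genes higher, 10.1%, 11.9% and 12.1% lower), so the scaling decides whether rises or falls were in the majority. Mylk2, the kinase that phosphorylates the fast regulatory light chain, was lower at 10 days (-3.73 ± 0.19, adjusted p 2.47e-10, edgeR) and later (log2 -3.09 and -1.95). Ankrd2, which binds titin, was lower at 10 days (-3.60 ± 0.37, adjusted p 4.97e-07) and 30 days (-1.13 ± 0.33, adjusted p 0.00710). Synpo2, a Z-disc actin-binding protein, was lower at all 3 times (-2.03, -1.81 and -1.25). Lmod1, the leiomodin of smooth muscle and one of the smooth muscle markers above, had the largest called fall at each time among genes of the list with a mean of at least 5 CPM (-4.30, -4.23 and -2.60).

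The largest rises in that list were those of Trim55 (1.75 ± 0.13, adjusted p 7.48e-09, edgeR), a ring-finger protein that binds titin, of the small heat shock protein Hspb8 (1.56 ± 0.16, adjusted p 2.83e-07) and of Klhl40 (1.29 ± 0.11, adjusted p 2.61e-08), a kelch protein that stabilises leiomodin and nebulin, at 10 days. At 30 days they were Csrp3 (1.68 ± 0.21, adjusted p 5.39e-06), muscle LIM protein, Hspb8 (1.37 ± 0.16, adjusted p 1.50e-06) and Pdlim2 (1.20 ± 0.16, adjusted p 9.60e-06). At 60 days they were Csrp3 (1.68 ± 0.21, adjusted p 7.73e-06), Hspb1 (0.88 ± 0.17, adjusted p 0.000292) and Pdlim2 (0.88 ± 0.17, adjusted p 0.000283).

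Summed markers of fibroblasts and macrophages were higher on average at all 3 times than at 0 days. Those of endothelial cells, adipocytes and Schwann cells were lowest on average at 10 days, as was the sum of the set (42863 CPM). All these sums are TMM-scaled. Sums of the marker lists with library totals are not given, and the order of the groups may depend on the scaling. The 7 fibroblast markers found summed to 494 to 1024 CPM on day 0, 974 to 2931 CPM on day 10, 1547 to 2532 CPM on day 30 and 1400.4 to 2994 CPM on day 60, and the 8 macrophage markers found to 38.8 to 63.8 CPM on day 0, 123 to 163 CPM on day 10, 171 to 211 CPM on day 30 and 145 to 260.2 CPM on day 60. Those of 6 endothelial markers summed to 264 to 309 CPM on day 0, 154 to 229 CPM on day 10, 227 to 253 CPM on day 30 and 239.7 to 357 CPM on day 60, of 6 adipocyte markers to 188 to 229 CPM on day 0, 70.9 to 133 CPM on day 10, 126 to 167 CPM on day 30 and 208 to 392 CPM on day 60, and of 6 Schwann cell markers to 64.7 to 99.3 CPM on day 0, 25.2 to 48.1 CPM on day 10, 54.8 to 88.9 CPM on day 30 and 108 to 239 CPM on day 60. No marker found was at 0 in every library. Their part in the fall of the sarcomere genes was not tested.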

How the data were processed

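Rat supraspinatus RNA was sequenced as TruSeq mRNA libraries, per the labels' protocols. The authors deposited 1 table of expected counts, raw fragments per gene and library. The submitters' processing notes name Cuffdiff 2.1.1, TopHat2 2.0.9, Bowtie2 2.1.0.0, bcl2fastq 1.8.4, FastQC, Cufflinks and the build rn5. Annotation, strandedness and filters are not given in the sources used here. Fractional values occur for 233 genes, and 2637 genes are at 0 throughout. Counts were rounded, filtered (filterByExpr), TMM-scaled and fitted with all 16 libraries in 1 robust edgeR quasi-likelihood model, with Benjamini-Hochberg adjustment over all genes tested and a threshold of 0.05. SE is the size of the log2 fold change divided by the square root of F. The common biological coefficient of variation was 0.150. Ratios had 0.5 counts added, and of the 10 computed and adjusted together 1 is not reported here.

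The genes and lists were chosen with earlier results of these data known. Any gene of the set could be named. Values in every library are given for the 3 largest called rises and falls without overlap in each comparison with 0 days and for both genes of each ratio that passed. Of the list of further genes, the 3 largest called rises and falls with a mean of at least 5 CPM are named. In simulated counts 200 of 11658 genes were changed 2-fold at 10 days. Of these edgeR called 180, all in the right direction, and it called 10 of the unchanged genes among 11505 tested. In the data 62.7% of all genes were called at 10 days, and recovery with that many genes changed was not tested. Alternatives were RLE and upper-quartile factors, library totals, DESeq2, no filter, fits of 2 groups, the replicate block, the title letter (L or R, meaning not stated), each library left out, and for ratios 5 counts added and limma. The share of fragments, with its alternatives without Acta1 and without each library, was added after seeing the data. The work used edgeR 4.0.16, DESeq2 1.42.0 and limma 3.58.1 in R 4.3.3.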

Additional observations from a re-analysis of the deposited data

Results flagged for a closer look

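Single libraries that stood apart from the other 3 of their group by Dixon's test came up for 13 of 116 groups of 4 values looked at, where chance gives about 1 in 20. Of these 5 were the same library, 60-day replicate 1, which was high for each: Acta1 was at 50033 CPM there against 33608 to 35070.2 in the others, Mybpc1 at 8923 against 5499 to 5715, Tmod1 at 479 against 303.0 to 304, Xirp2 at 5146 against 2203 to 2629.7 and Smyd1 at 127 against 64.4 to 70.3. The others were 0-day replicate 1 for Mybph (163 CPM) and Smyd1 (199.8), 0-day replicate 3 for Myl1 (16678), 10-day replicate 3 for Actn3 (2751), 30-day replicate 4 for Mybph (2070.2), 60-day replicate 3 for Tpm1 (12919.7), and, as the lowest of their groups, 30-day replicate 1 for Mypn (411) and 60-day replicate 4 for Pdlim7 (93.4).

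The change from 0 days differed between 60 and 10 days for 26 of the 29 genes, tested as 60 against 10 days (edgeR adjusted p under 0.05, against 61.1% of all genes). The difference was upward, on the log2 scale, for 22 genes: 2.30 for Acta1, 1.57 for Actn2, 1.29 for Actn3, 1.15 for Myl1, 3.14 for Myl2, 3.53 for Myl3, 1.98 for Mylpf, 1.34 for Mybpc1, 2.83 for Mybpc2, 0.95 for Myom1, 1.51 for Myom2, 2.17 for Myoz1, 1.88 for Myoz2, 2.63 for Ldb3, 1.08 for Tmod4, 0.80 for Tpm1, 1.71 for Tpm2, 1.89 for Tpm3, 0.31 for Mypn, 1.00 for Pdlim5, 0.83 for Pdlim7 and 0.97 for Xirp2. It was downward for 4: -2.67 for Actc1, -0.74 for Mybph, -0.39 for Tmod1 and -0.62 for Unc45b. Both effects are measured against the same libraries at 0 days. The call was lost with library totals for Mypn (0.057, adjusted p 0.559), and with upper-quartile factors (-0.31, adjusted p 0.0605) and in the fit of 2 groups (-0.39, adjusted p 0.0720) for Tmod1. Without 60-day replicate 1 the value for Xirp2 was 0.61, still called.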

How the results depend on the processing

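Counts of called genes, both directions together, stayed within 1.5 times of those given under every alternative run except 13 (DESeq2) for 60 against 30 days. Splits by direction against 0 days moved by more, with library totals at 30 and 60 days and with upper-quartile factors at 60 days. Leaving out 1 library gave 26 to 27 called at 10 days, 20 to 23 at 30 days and 14 to 18 at 60 days against 0 days, 23 to 24 from 10 to 30 days, 7 to 11 from 30 to 60 days and 24 to 26 from 10 to 60 days. Of the 9 ratios 4 passed from 10 to 60 days, and 7 with limma. Without Acta1 the share of fragments differed by -5.11, -1.15 and -0.400 percentage points at 10, 30 and 60 days against 0 days, and by 3.96 and 4.71 at 30 and 60 days against 10 days. Without single libraries the share's difference ran from -9.20 to -8.83, -3.46 to -2.50 and -1.74 to -1.03 against 0 days.

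Signs turned with library totals for Mypn (0.096), Pdlim3 (0.54) at 10 days, for Myl3 (0.064), Myom1 (0.17), Mypn (0.25), Pdlim3 (0.43) and Unc45b (0.25) at 30 days, for Myl3 (0.017), Myom1 (0.23), Myoz2 (0.24), Ldb3 (0.17), Tmod1 (0.36), Tmod4 (0.010), Tpm3 (0.16), Mypn (0.15), Pdlim3 (0.33) and Xirp2 (0.25) at 60 days, and for Pdlim3 (-0.21) and Smyd1 (-0.23) from 10 to 60 days. The construction of that scaling, with no factor for abundant transcripts, moves all genes together. With upper-quartile factors the sign turned for Pdlim3 at 30 days (0.057) and 60 days (0.068) and Tmod1 at 60 days (0.098), and for Unc45b at 10 days with RLE factors (-0.0038) and DESeq2 (-0.00197). Leaving out 1 library turned the sign of values near 0 that were not called: Unc45b at 10 days ran from -0.0084 to 0.069, Myl1 and Mylpf at 30 days from -0.0057 to 0.16 and -0.062 to 0.16, Tmod1 and Pdlim3 at 60 days from -0.24 to 0.042 and -0.17 to 0.016, and Pdlim3 and Smyd1 from 10 to 60 days from -0.051 to 0.13 and -0.26 to 0.15. The cause was not tested.

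With the replicate block, 27, 22 and 17 genes were called against 0 days, and 24, 8 and 26 from 10 to 30, 30 to 60 and 10 to 60 days. The labels do not say whether replicate numbers pair the libraries. The correlation of deviations over 24 same-numbered pairs averaged 0.00129 (-0.237 to 0.216), and 7 of the 24 pairs were one library's best match in the other group. For 30 against 0 days every same-numbered pair was a best match, with correlations of 0.0491 to 0.0736. These values do not settle whether libraries are paired. Exact tests of 4 against 4 cannot go below 0.0286. Ratio tests with a library left out are not reported here. The limit of detection of 3 fragments, 0.0752 to 0.175 CPM by library total without TMM factors, was a chosen setting and was not measured.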
